A study of Mus musculus with 8 samples.

Results

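Of the 52325 genes listed, 10 of the inflammatory NF-kappa-B response were followed in rib chondrocytes of wild-type mice and mice null for the microRNA gene Mir324. They are the secreted factors Il6, Tnf and Lif, the chemokines Cxcl1, Cxcl2, Ccl2 and Ccl7, the enzyme gene Ptgs2, and the brakes Tnfaip3 and Nfkbia. Each was taken by its symbol, and each symbol matched 1 gene. The study sequenced total RNA from 8 mice, 4 wild-type controls (WT) and 4 Mir324-null animals, 1 library per mouse. Rib cartilage was digested with collagenase, an enzyme that cuts collagen, and RNA was taken directly from the freed cells with no treatment. The labels state neither age, sex nor strain, nor how the null allele was made. Values are TPM, transcript abundances scaled by length and to the same total in every library, so levels can be compared between genes but the sequencing depth is not known.

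NF-kappa-B is a family of transcription factors held in the cytoplasm by inhibitor proteins of the I-kappa-B family. Signals from cytokine receptors, toll-like receptors or cell damage lead to destruction of the inhibitor, entry of the factor into the nucleus and rapid transcription of cytokine and chemokine genes. Among the genes switched on are the pathway's own inhibitors, which end the response. In cartilage the pathway is known for its part in matrix breakdown, and chondrocytes freed from their matrix by enzymes can express many of its target genes.

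NF-kappa-B binds a 10-base sequence, the kappa-B consensus, which was sought on both strands in the 250 bases before each start site (RefSeq, GRCm38.p6). Promoters of 8 of the 10 genes were matched, 9 start sites in all. The consensus was present for 5 genes, Il6, Cxcl1, Cxcl2, Tnfaip3 and Nfkbia. Counted by start site, it was present at 5 of the 9, and in 3.9% of all 32851 promoters. The last 130 bases before the start site of these 5 are shown because they place the sites in the cytokine, the chemokine pair and both brakes, with matched bases in capitals.
Il6, chr5:30012984-30013113, plus strand: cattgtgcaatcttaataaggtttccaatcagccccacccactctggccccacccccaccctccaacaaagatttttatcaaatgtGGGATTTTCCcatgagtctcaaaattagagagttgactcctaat
Cxcl1, chr5:90891115-90891244, plus strand: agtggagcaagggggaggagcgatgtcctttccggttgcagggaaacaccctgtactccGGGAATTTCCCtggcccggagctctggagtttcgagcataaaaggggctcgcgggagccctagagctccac
Cxcl2, chr5:90903769-90903898, plus strand: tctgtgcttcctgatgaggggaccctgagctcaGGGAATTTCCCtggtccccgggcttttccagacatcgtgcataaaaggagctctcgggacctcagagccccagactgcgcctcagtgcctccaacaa
Tnfaip3, chr10:19015411-19015540, minus strand: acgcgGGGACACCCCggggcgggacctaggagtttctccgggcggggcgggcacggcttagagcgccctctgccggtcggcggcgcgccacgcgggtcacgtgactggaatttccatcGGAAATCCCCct
Nfkbia, chr12:55492648-55492777, minus strand: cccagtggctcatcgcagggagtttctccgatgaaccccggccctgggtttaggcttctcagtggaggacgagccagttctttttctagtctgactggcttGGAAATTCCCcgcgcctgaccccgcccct

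Cxcl1 and Cxcl2 held the same 11 bases, GGGAATTTCCC, which match the consensus on both strands in overlapping frames, 71 to 61 bases before the start of Cxcl1 and 97 to 87 before that of Cxcl2. Il6 held 1 match, 44 to 35 bases before its start. Tnfaip3 held 1 match at 125 to 116 and another at 12 to 3 bases before its first start site, and no match at its second. Nfkbia held 1 match at 29 to 20 bases. No match was found in these windows of Tnf, Lif and Ptgs2. A match is a description of the letters, not a measured binding site.

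Mir324 gives rise to a pair of mature microRNAs, shown here with the seed, bases 2 to 8, in capitals (RefSeq, GRCm38.p6, chromosome 11, plus strand, 70012060 to 70012082 and 70012095 to 70012114).
mmu-miR-324-5p: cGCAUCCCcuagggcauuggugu
mmu-miR-324-3p: cCACUGCCccaggugcugcu
The 7-base complement of each seed was sought in the longest annotated 3′ UTR of the 10 genes. The miR-324-5p site was present in 0 of the 10, and in 7.39% of 21028 genes with a 3′ UTR. The miR-324-3p site was present in Lif and Tnfaip3, and in 12.7% of those genes. Both are shown with the site in capitals.
Lif: gccaagctggGGCAGTGgctgactaca
Tnfaip3: cctggttaccGGCAGTGcatgatgtca

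Of 11 chondrocyte markers read, Col2a1, the main cartilage collagen, ranged from 31940 to 43700 TPM. Matn1 was the lowest, at 12.5 to 29.3 TPM. Sox9, the principal chondrocyte transcription factor, stood at 146 to 161 TPM in WT and 129 to 138 TPM in null libraries. It was the 1 marker whose groups did not overlap, as for 2.68% of tested genes. Mir324 itself was listed at 0 TPM in all 8 libraries and gave no check of genotype. Null replicate 3 had the fewest genes at 1 TPM or more, 13229 against 13683 to 14477 in the others. Its protein-coding transcripts also followed their length more closely than those of any other library. Across 11378 genes, which are not independent replicates, the Spearman correlation of transcript length with the deviation from the other libraries was -0.47, against -0.11 to 0.29 elsewhere. In that library 3908 genes with a transcript of 4000 bases or more had a median deviation of -0.56 on the log2 scale, and 1725 genes of 1500 bases or fewer had 0.12. Results are therefore given with and without null replicate 3 where it moves them.

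All 10 genes were expressed in every library, and the lowest single value was 4.17 TPM (Tnf, null replicate 2). Cxcl1 was the 88th most abundant of all genes by its mean of 1775 TPM and held 47.5% to 57.2% of the summed TPM of the 10. Cxcl2 followed at 681 TPM and Nfkbia at 460 TPM. Ptgs2 averaged 171, Tnfaip3 95, Lif 90.3, Ccl7 40, Il6 26.8, Ccl2 26.6 and Tnf 5.56 TPM over the 8 libraries. Cxcl1 over Cxcl2, Nfkbia over Ptgs2, Ptgs2 over Tnfaip3, Lif over Ccl7 and Ccl2 over Tnf held in 8 of 8 libraries. Cxcl2 lay above Nfkbia in 7 of 8. The neighbours Tnfaip3 and Lif were in that order in 4 of 8 libraries, and Ccl7 over Il6 and Il6 over Ccl2 in 5 of 8, so these pairs were not separated beyond the spread of the libraries.

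**Figure D1:**
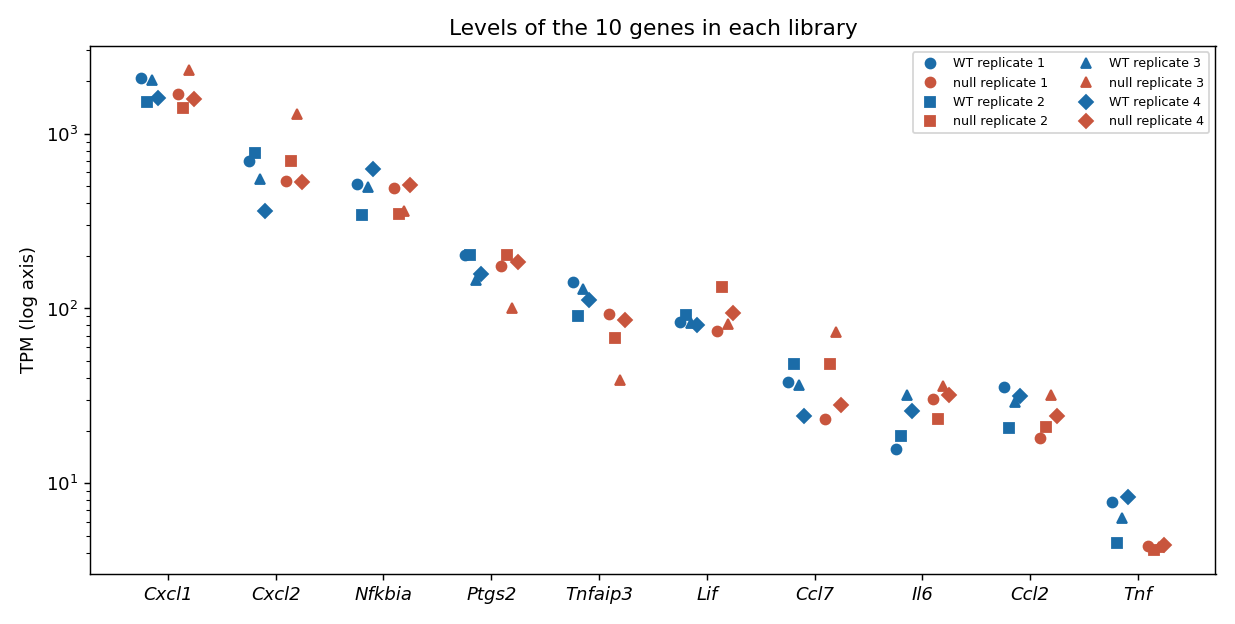
TPM on a log axis of each of the 10 genes in the 8 libraries; blue points are WT, red points are null, and the symbol shape gives the replicate. Cxcl1 lies near 1775 TPM and Tnf near 5.56 TPM, and the colours are interleaved for every gene except Tnf.

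The genotypes were compared by limma with a variance trend, fitted to log2(TPM + 1) over all tested genes and Benjamini-Hochberg adjusted. At an adjusted level of 0.05, 0 of the 10 genes passed, beside 3 of 13910 tested genes (0.0216%). The members' limma adjusted p-values were 0.981 to 0.988. At an unadjusted p under 0.05 there were 2 members, Tnf and Tnfaip3, against 4.15% of tested genes. Both were lower in the null group, as were 2.37% of tested genes at that level. The fold changes, all on the log2(TPM + 1) scale as null minus WT, were positive for 4 of the 10 members, as for 39.9% of all tested genes, and negative for 6. Their median was -0.09, beside -0.05 over all tested genes. Without null replicate 3 the signs were again 4 and 6, while 55.0% of tested genes were positive, and the members' median was -0.15 beside 0.02 over all. That fit left 2 members, again Tnf and Tnfaip3, at an unadjusted p under 0.05, where 5.06% of tested genes were. The median size of the change regardless of sign was 0.24 for the members and 0.15 for all tested genes. The 95% interval lay within 1 log2 unit of no change for 8 of the 10, all but Cxcl2 and Tnfaip3, and for 79.9% of tested genes. The groups did not overlap for 1 member, Tnf, while 2.68% of tested genes had groups that did not overlap.

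**Figure D2:**
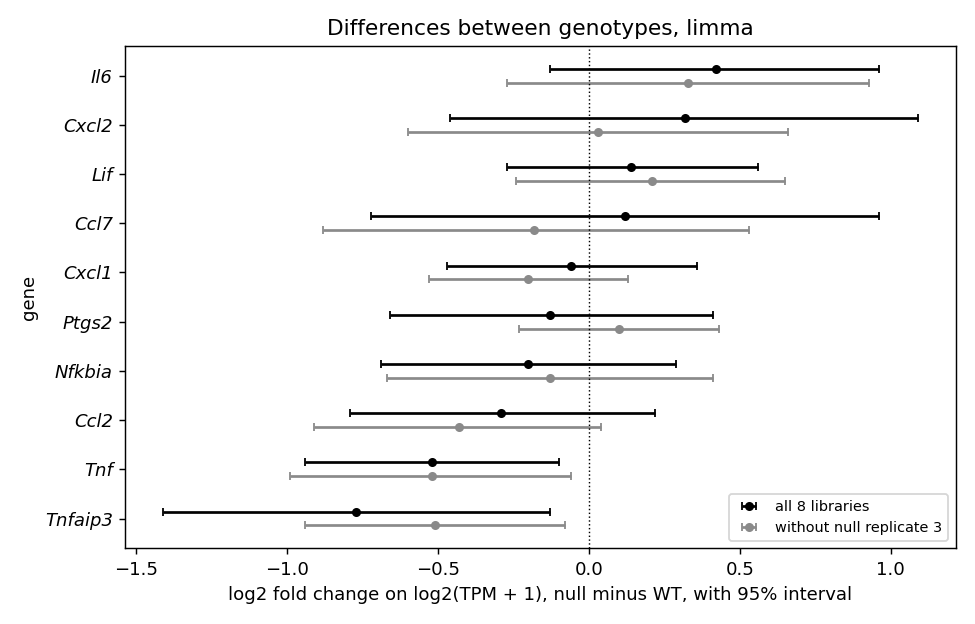
Log2 fold change of each gene on the log2(TPM + 1) scale, null minus WT, with its 95% interval from limma; black is all 8 libraries and grey is without null replicate 3. The intervals of Tnf and Tnfaip3 exclude 0 in both cases, with 0.981 as the adjusted p of each over all libraries.

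Tnf encodes tumour necrosis factor, a cytokine that both activates NF-kappa-B and is transcribed by it. The WT animals had 7.86, 4.55, 6.34 and 8.40 TPM (replicates 1 to 4), and the null animals 4.36, 4.17, 4.32 and 4.43 TPM. The null libraries were closely grouped and all lay below the WT libraries, although WT replicate 2 was just above them. The means were 6.79 ± 1.73 TPM for WT against 4.32 ± 0.111 TPM for null (SD, n = 4 each), a ratio of 1.57. The log2 fold change was -0.52 (SE 0.18, 95% interval -0.94 to -0.10; limma adjusted p = 0.981). An exact two-sided permutation test gave p = 0.0286, the smallest that 70 labelings allow, beside limma's unadjusted p = 0.0208. After median-of-ratios scaling the groups overlapped and the log2 fold change was -0.46. Its 95% interval then included 0, as did that without WT replicate 1 (-0.45) and that without WT replicate 4 (-0.42). In bulk RNA, fewer cells of a type and less RNA per cell cannot be told apart.

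Il6 encodes interleukin 6, which signals through the shared receptor subunit gp130. It stood at 15.7, 18.7, 32.0 and 26.0 TPM in WT and at 30.4, 23.3, 35.9 and 32.2 TPM in null replicates 1 to 4. WT replicates 1 and 2 were the lowest of the 8 libraries, while WT replicates 3 and 4 lay within the null range. The means were 23.1 ± 7.34 TPM and 30.4 ± 5.30 TPM (SD, n = 4 each), with a log2 fold change of 0.42 (95% interval -0.13 to 0.96; exact permutation p = 0.171, two-sided). It was 0.33 without null replicate 3, and ran from 0.26 without WT replicate 1 to 0.58 without WT replicate 3.

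Lif encodes leukemia inhibitory factor, a cytokine of the same gp130 family. It stood at 83.8, 91.9, 82.5 and 80.5 TPM in WT and at 74.5, 133, 81.6 and 93.9 TPM in null replicates 1 to 4. The WT libraries varied by 5.93% (SD over mean) and the null libraries by 27.4%, with null replicate 2 the highest and null replicate 1 the lowest of all 8. The null minus WT difference was 0.14 on the log2 scale (95% interval -0.27 to 0.56). It turned to -0.03 without null replicate 2 and was 0.21 without null replicate 3.

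Ptgs2 encodes cyclooxygenase 2, the inducible enzyme of prostaglandin synthesis. It stood at 201, 201, 146 and 158 TPM in WT and at 176, 202, 100 and 184 TPM in null replicates 1 to 4. Null replicate 3 was the lowest library, and the other 3 null libraries lay within or just above the WT range. The log2 fold change of -0.13 (95% interval -0.66 to 0.41) became 0.10 without it.

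The neutrophil chemokines Cxcl1 and Cxcl2 share the receptor CXCR2 and lie next to each other on chromosome 5 (GENCODE M21, GRCm38), 10.8 kb apart with 0 protein-coding genes between them. Their annotated transcripts shared 0 words of 31 bases, so no stretch of that length was common to both. Cxcl1 stood at 2076, 1513, 2024 and 1598 TPM in WT and at 1692, 1395, 2316 and 1587 TPM in null replicates 1 to 4. The groups overlapped throughout and null replicate 3 was the highest. The means were 1802 ± 288 TPM and 1747 ± 398 TPM (SD, n = 4 each), with a log2 fold change of -0.06 (95% interval -0.47 to 0.36). It was 0.02 after median-of-ratios scaling and -0.20 without null replicate 3 (95% interval -0.53 to 0.13).

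Cxcl2 stood at 698, 771, 554 and 359 TPM in WT and at 539, 697, 1295 and 532 TPM in null replicates 1 to 4. Null replicate 3 was far above the other 7 libraries, and the remaining null libraries lay within the WT range. Its log2 fold change was 0.32 (95% interval -0.46 to 1.09) with that library, 0.03 without it and 0.10 without WT replicate 4. The ratio of Cxcl2 to Cxcl1 within a library ran from 0.225 in WT replicate 4 to 0.559 in null replicate 3. WT replicate 2 and null replicate 2, at 0.51 and 0.50, were next to the highest, and the groups overlapped. Its log2 value was 0.38 higher in null (exact permutation p = 0.314, two-sided; adjusted p = 0.314 over the 3 ratios examined). This difference was 0.23 without null replicate 3, 0.21 without WT replicate 4 and 0.60 without WT replicate 2.

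The monocyte chemokines Ccl2 and Ccl7, which both act on the receptor CCR2, are neighbours on chromosome 11, with 8.3 kb and 0 protein-coding genes between them and 0 shared words of 31 bases. Ccl2 stood at 35.6, 20.6, 29.3 and 31.6 TPM in WT and at 18.2, 21, 32.2 and 24.3 TPM in null replicates 1 to 4. WT replicate 2 was as low as null replicate 2, and null replicate 3 was as high as WT replicate 4. For Ccl2 the difference was -0.29 on the log2 scale (95% interval -0.79 to 0.22; exact permutation p = 0.314, two-sided). It was -0.43 without null replicate 3 (95% interval -0.91 to 0.04) and -0.44 without WT replicate 2, and it was smaller in size without null replicate 1 (-0.17) or WT replicate 1 (-0.18).

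Ccl7 stood at 38.0, 48.0, 36.7 and 24.3 TPM in WT and at 23.3, 48.0, 73.5 and 28.0 TPM in null replicates 1 to 4. Null replicate 3 was the highest and null replicate 1 the lowest of all 8. For Ccl7 the log2 fold change of 0.12 (95% interval -0.72 to 0.96) became -0.18 without null replicate 3. The ratio of Ccl7 to Ccl2 was near 2.3 in WT replicate 2 (2.33), null replicate 2 (2.29) and null replicate 3 (2.28), and 0.769 to 1.28 in the other 5 libraries. The difference between genotypes in its log2 value was 0.41 (exact permutation p = 0.314, two-sided; adjusted p = 0.314 over the 3 ratios). Without WT replicate 4 it was 0.18, without null replicate 2 or null replicate 3 it was 0.26, and without WT replicate 2 it was 0.70.

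Tnfaip3 encodes A20, an enzyme that edits ubiquitin chains and shuts off signalling upstream of NF-kappa-B. It stood at 142, 90.5, 129 and 112 TPM in WT and at 93.5, 68.0, 39.2 and 85.8 TPM in null replicates 1 to 4. The groups met at a single point: null replicate 1 lay just above WT replicate 2, and every other null library lay below all WT libraries. The means were 118 ± 22.4 TPM and 71.6 ± 24.1 TPM (SD, n = 4 each), a ratio of 1.65. Its log2 fold change of -0.77 was the largest in size among the 10 (SE 0.28, 95% interval -1.41 to -0.13; limma adjusted p = 0.981). An exact two-sided permutation test gave p = 0.0571, beside limma's unadjusted p = 0.0236. The value was -0.51 without null replicate 3 (95% interval -0.94 to -0.08), and its 95% interval included 0 without WT replicate 1 (-0.67) or WT replicate 3 (-0.72). The longest Tnfaip3 transcript has 4422 bases and deviated by -1.33 in null replicate 3, whose long transcripts were low as a class. The part of transcript length in this result was not tested.

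Nfkbia encodes I-kappa-B alpha, the inhibitor that binds NF-kappa-B and returns it to the cytoplasm. It stood at 512, 341, 497 and 629 TPM in WT and at 490, 345, 362 and 507 TPM in null replicates 1 to 4. WT replicate 2 was the lowest and WT replicate 4 the highest, so the null libraries lay inside the WT range. For Nfkbia the difference was -0.20 on the log2 scale (95% interval -0.69 to 0.29; exact permutation p = 0.457, two-sided). It was -0.37 without WT replicate 2, -0.08 without WT replicate 4, -0.11 without null replicate 2 and -0.13 without null replicate 3. The ratio of Tnfaip3 to Nfkbia was 0.278, 0.266, 0.259 and 0.178 in WT and 0.191, 0.197, 0.108 and 0.169 in null replicates 1 to 4. All null ratios lay below those of WT replicates 1 to 3, and WT replicate 4 lay inside the null range. The longest transcripts have 4422 bases for Tnfaip3 and 1578 for Nfkbia. Null replicate 3 and WT replicate 4, the libraries with negative length correlations (-0.47 and -0.11), had the lowest ratio of their group. The part of transcript length in this ratio was not tested. The mean log2 ratio differed by -0.57 (exact permutation p = 0.0857, two-sided; adjusted p = 0.257 over the 3 ratios). It differed by -0.38 without null replicate 3 (exact permutation p = 0.114, unadjusted) and by -0.71 without WT replicate 4 (exact permutation p = 0.0286, unadjusted). With any other single library left out the unadjusted exact permutation p was 0.0857 to 0.2.

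**Figure D3:**
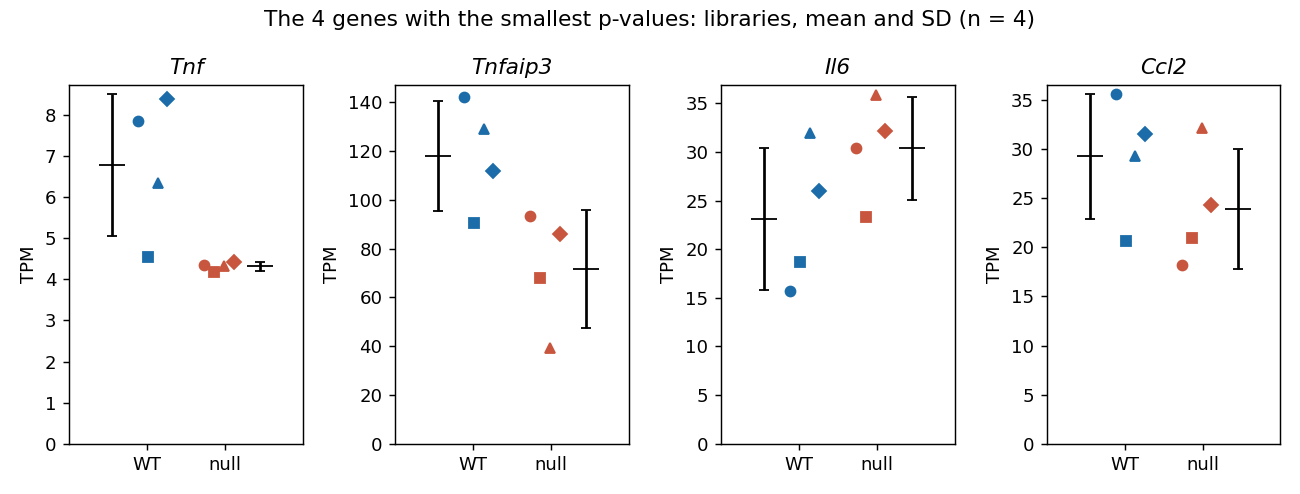
TPM on linear axes from 0 of Tnf, Tnfaip3, Il6 and Ccl2, the members with the smallest limma p-values; points are libraries with the replicate given by symbol, and bars are the mean and SD (n = 4). The null values of Tnf, 4.17 to 4.43 TPM, all lie below WT, and the groups overlap for the other genes shown.

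The 10 genes did not move as a block across libraries. Null replicate 3 was the highest library for 4 of them, Il6, Cxcl1, Cxcl2 and Ccl7, and the lowest for 2, Ptgs2 and Tnfaip3. It was the highest for 11.5% and the lowest for 43.3% of all tested genes. Against the mean of the other 7 libraries it deviated on the log2(TPM + 1) scale by 1.16 for Cxcl2, 1.09 for Ccl7, 0.52 for Il6 and 0.46 for Cxcl1. The 3 members with the longest transcripts deviated downwards, by -0.14 for Lif, -0.84 for Ptgs2 and -1.33 for Tnfaip3. Ccl7, Ccl2 and Cxcl1, with the shortest transcripts (801, 813 and 953 bases), deviated upwards. The order by length was not complete, since Nfkbia (1578 bases) was at -0.36 and Il6 (2343 bases) was at 0.52. WT replicate 4 had the highest Tnf and Nfkbia and the lowest Cxcl2. Between WT animals the members varied by a median of 22.8% (SD over mean), beside 19.0% for all tested genes and 15.1% for those with a mean of 10 TPM or more, which all members but Tnf reach.

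**Figure D4:**
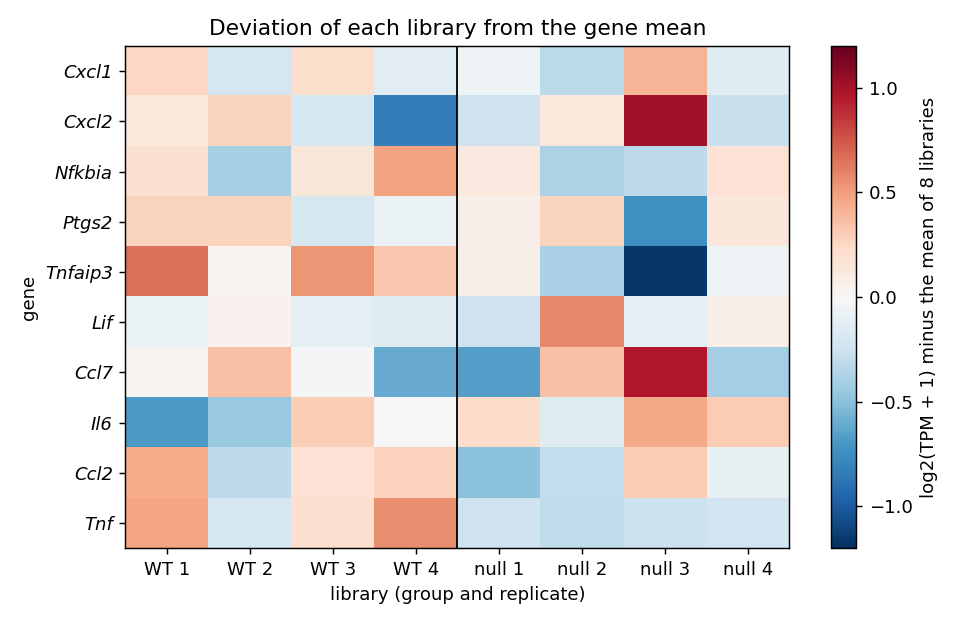
Deviation of log2(TPM + 1) from the mean of the 8 libraries for each gene (rows, by level) and library (columns, WT left of the line, null right); red is above and blue below the mean. Null replicate 3 is high for Cxcl2 and Ccl7 and low for Tnfaip3 and Ptgs2.

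Among the members themselves the most alike pattern over the 8 libraries was that of Cxcl2 and Ccl7, with a Pearson correlation of 0.92 on log2(TPM + 1). Next of the 45 pairs were Tnf with Nfkbia at 0.73 and Ccl2 with Tnf at 0.72. This order rested on null replicate 3: without it Ccl2 with Tnf and Cxcl1 with Tnfaip3 were highest at 0.92 each, the latter from -0.11 over all 8, and Cxcl2 with Ccl7 was at 0.82. The highest value of Il6 over the 8 libraries was 0.23, with Cxcl1. A search of 11387 other protein-coding genes found closer patterns for every member. That search was far larger than the one among the members, so it does not show whether the members vary together. Actb, the cytoplasmic actin gene, was nearest to Ccl7 (0.99), and Eif3b, a subunit of a translation initiation factor, was nearest to Cxcl2 (0.99). P4hb, a protein disulfide isomerase gene, was nearest to Cxcl1 (0.93), Cd74, the MHC class II invariant chain, to Ccl2 (0.95), Sox7 to Il6 (0.95), Prkca, a protein kinase C gene, to Lif (0.97), and Vgf to Tnf (0.97). Supt20 was nearest to Ptgs2, Necap1 to Tnfaip3 (0.99 each) and Mpp2 to Nfkbia (0.98). These values describe 8 libraries that share the length trend and scaling above. Each was picked as the highest of many, so no p-value belongs to it.

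The rest of the pathway was described from 5 lists of related genes. Of 60 NF-kappa-B pathway genes on 4 of them, 54 were tested, and 0 passed limma's test over all genes (0.0216% of tested genes did), with 5 at an unadjusted p under 0.05, beside 4.15% of tested genes. The signs below are to be read against all tested genes, of which 60.1% were negative over the 8 libraries and 45.0% without null replicate 3.

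The subunits and the kinases that release them gave 3 positive and 9 negative fold changes of 12 tested, with a median of -0.21 and 0 at an unadjusted limma p under 0.05. Without null replicate 3 there were 5 positive and 7 negative values and a median of -0.02. Rela, the main activating subunit, averaged 83.8 ± 5.78 TPM in WT and 73.3 ± 3.06 TPM in null libraries (SD, n = 4 each). Its groups did not overlap, at 76.1 to 89.9 against 69.6 to 75.8 TPM, as for 2.68% of tested genes. After median-of-ratios scaling they overlapped. The log2 fold change of Rela was -0.19 (95% interval -0.42 to 0.04). Relb, a subunit of the non-canonical pathway, had -0.22.

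The receptors and adaptors gave 3 positive and 9 negative values of 12 tested (median -0.13), and 9 positive and 3 negative without null replicate 3 (median 0.13). Over all tested genes the share of positive values likewise went from 39.9% to 55.0% and the median from -0.05 to 0.02. Il6ra, the ligand-binding interleukin 6 receptor, had -0.51, from 6.81 ± 1.28 TPM in WT to 4.70 ± 1.81 TPM in null libraries (SD, n = 4 each; 95% interval -1.17 to 0.15), with 2.01 TPM in null replicate 3. Traf2, an adaptor of tumour necrosis factor receptors, had -0.22 (95% interval -0.51 to 0.08). Tnfrsf1a, the main receptor for tumour necrosis factor, had 0.17 and stood at 125 to 130 TPM in the null libraries and 101 to 147 TPM in WT. The chemokine receptors on this list were nearly absent: Cxcr2 reached at most 0.491 TPM and Ccr2 at most 0.169 TPM in any library. Other receptors of the 4 chemokines were not read.

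The list named other brakes held Nfkbib, Nfkbie, Nfkbiz, Bcl3, Cyld, Tnip1, Tnip2, Irak3, Traf1, Birc3, N4bp1, Zc3h12a, Zfp36 and Socs3. Not all of these act only as inhibitors of NF-kappa-B, so the list is not a measure of inhibition. It gave 1 positive and 13 negative values of 14 tested, with a median of -0.22. At an unadjusted limma p under 0.05 there were 2 (4.15% of tested genes). Without null replicate 3 there were 12 negative values, the median was -0.14 and 1 reached that level (5.06% of tested genes). Zc3h12a, an endonuclease that degrades cytokine mRNAs, stood at 14.1 to 15.4 TPM in WT and at 11.1, 10.8, 8.24 and 14.1 TPM in null replicates 1 to 4 (log2 fold change -0.41, 95% interval -0.78 to -0.04). Nfkbie, which encodes I-kappa-B epsilon, had -0.68, from 8.66 ± 2.56 to 5.11 ± 1.92 TPM (SD, n = 4 each; 95% interval -1.31 to -0.04). Cyld, a deubiquitinase, had -0.46 (95% interval -1.04 to 0.13).

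The other target genes gave 7 positive and 9 negative values of 16 tested, with a median of -0.13 and 3 at an unadjusted limma p under 0.05 (4.15% of tested genes). Without null replicate 3 the signs were again 7 and 9, the median was -0.07 and 2 reached that level (5.06% of tested genes). Cxcl3, a further CXCR2 ligand, stood at 3.15 to 4.69 TPM in WT and 1.63 to 2.82 TPM in null libraries (log2 fold change -0.58, 95% interval -0.97 to -0.19). Its groups did not overlap, as for 2.68% of tested genes. Cxcl10, an interferon-induced chemokine, averaged 889 ± 393 TPM and 454 ± 123 TPM (SD, n = 4 each; log2 fold change -0.91, 95% interval -1.62 to -0.20). Csf1, the macrophage colony-stimulating factor, averaged 124 ± 27.8 TPM and 84.9 ± 21 TPM (SD, n = 4 each), again with no overlap (log2 fold change -0.56, 95% interval -1.09 to -0.03). After median-of-ratios scaling the Csf1 groups overlapped. Csf3, the granulocyte factor, had 0.62 (95% interval -0.07 to 1.31). Each of these had a limma adjusted p of 0.981.

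Immediate early genes, which respond to tissue dissociation, were listed as a comparison. They gave 1 positive and 19 negative values of 20 tested, with a median of -0.36, or -0.22 without null replicate 3, and 6 at an unadjusted limma p under 0.05 (4.15% of tested genes), or 1 without it (5.06%). Without it 1 value was again positive and 19 were negative, beside 60.1% negative over all tested genes with that library and 45.0% without it. Fosl1, an AP-1 subunit, stood at 210 to 273 TPM in WT and 167 to 210 TPM in null libraries (log2 fold change -0.38, 95% interval -0.66 to -0.10). Ier3, a stress response gene that NF-kappa-B also induces, was the positive one, at 0.47 (95% interval 0.06 to 0.87), with 765 to 1077 TPM in WT and 954 to 1537 TPM in null libraries. Both had a limma adjusted p of 0.981. The summed TPM of this list was 10872 to 15285 in WT and 7605 to 11763 in null libraries, lowest in null replicate 3. Its part in the values of Tnf and Tnfaip3 was not tested.

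**Figure D5:**
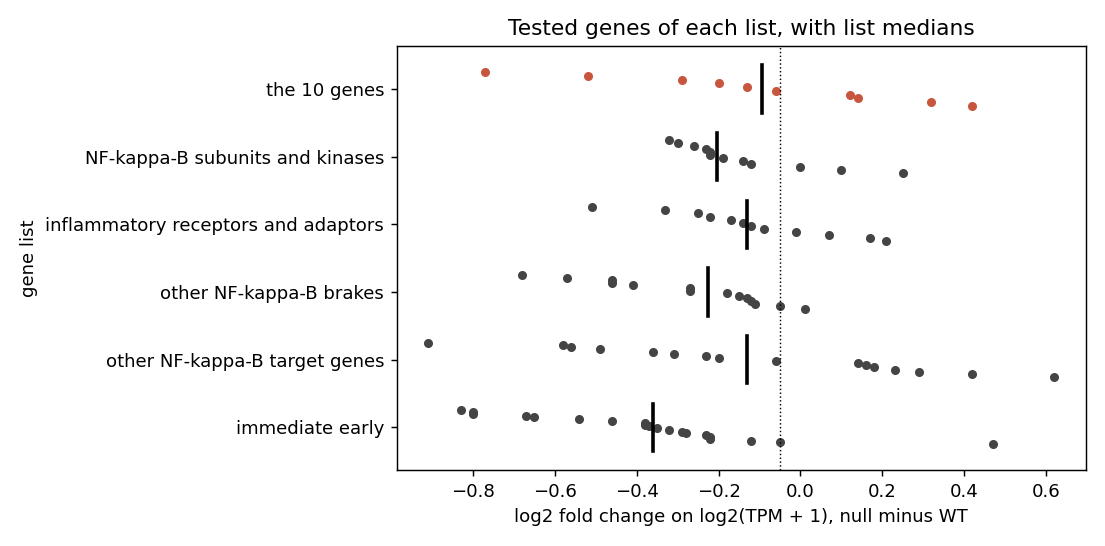
Log2 fold change on the log2(TPM + 1) scale, null minus WT, of each tested gene (points) by list, with list medians as vertical bars and the median of all tested genes, -0.05, as a dotted line. The 10 genes (median -0.09) spread on both sides, and 19 of 20 immediate early genes lie below 0.

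Cells of the blood could also carry these transcripts, so their markers were read in the same libraries. Of 14 macrophage and monocyte markers, 9 were below 1 TPM in every library, among them the pan-leukocyte gene Ptprc (at most 0.132 TPM), Adgre1 (at most 0.0442 TPM) and the complement genes C1qa, C1qb and C1qc (at most 0.0829 TPM). Il1b, a cytokine of activated macrophages, was at 0 in each WT library and at most 0.652 TPM in a null library. The summed TPM of the 14 markers was 46.7 to 64.2 in WT and 61.7 to 90.2 in null libraries, most of it from Cd14, at 27.3 to 41.3 TPM in WT and 41.0 to 61.0 TPM in null libraries, and Cd68. Of 4 tested, 3 fold changes were positive (39.9% of tested genes), or 2 without null replicate 3 (55.0%). Cd14 alone reached an unadjusted limma p under 0.05 (4.15% of tested genes). Itgam, which passed the filter through the null libraries, was at 0.649 to 1.09 TPM in WT and 0.953 to 5.93 TPM in null libraries. Neutrophil markers summed to 1.42 to 3.87 TPM in WT and 3.08 to 6.28 TPM in null libraries, with 6 of 9 below 1 TPM everywhere and Ly6g at 0, and lymphocyte markers to 0.989 to 1.42 and 1.55 to 3.67 TPM. The neutrophil and lymphocyte sums were highest in null replicate 3. Camp, a listed neutrophil marker that did not pass the filter, was at 0.181 to 0.877 TPM in WT and 0.95 to 2.06 TPM in null libraries. Its groups did not overlap, as for 2.68% of tested genes. Endothelial markers gave 9 positive values of 9 tested (median 0.77), beside 39.9% positive over all tested genes. An unadjusted limma p under 0.05 was reached by 4 (4.15% of tested genes), and 0 passed after adjustment. Without null replicate 3 there were again 9 positive values (55.0% of tested genes), a median of 0.58 and 4 at that level (5.06%). The groups did not overlap for Vwf, as for 2.68% of tested genes. Vwf and Robo4, counted among the 4 over all libraries, and Tie1 passed the filter only through the null libraries. The signs and p-values of these genes are therefore not free of that filter. Kdr and Tek did not pass it, with means of 0.5 and 0.709 TPM in WT and 0.777 and 0.592 TPM in null libraries. The endothelial sums were 12.2 to 48.8 TPM in WT and 39.1 to 52.4 TPM in null libraries. Esam alone was 1.33 to 20.7 TPM in WT and 4.12 to 24.9 TPM in null libraries. The part of these cells in the members' values was not tested.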

How the data were processed

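RNA-seq values of 8 libraries were used. The deposited table holds TPM, which the authors call length-scaled, in all 8 columns. In it 273 identifiers are repeated with the same values. For null replicate 3 the deposited sum is past 1000000 for this reason, and its unit was entered as other, though its values are TPM like the rest. With each identifier counted once all columns sum to 1000000. Of 52865 rows, 52325 identifiers were distinct and 52220 matched GENCODE M21 (GRCm38). Kallisto and DESeq2 are named without versions, per the submitters' processing notes, which name the human build GRCh38; the identifiers are mouse, so the authors' mouse annotation is not known. The depth is unknown, so no counting interval is given. No source used here says whether counting used strand.

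The 13910 genes that reached 1 TPM in at least 4 libraries entered limma 3.58.1 (R 4.3.3) on log2(TPM + 1). Genotype was the single term, the prior variance followed mean expression, and p-values were Benjamini-Hochberg adjusted with a level of 0.05; fold changes on this scale understate those of low genes. Exact permutation tests used 70 labelings with all 8 libraries, and 10 gene levels and 3 ratios were examined. With a library left out there were fewer labelings, and 0.0286 was again the smallest p possible. The procedure was tested on simulated data. The 10 genes and all lists were chosen with earlier results of these data known. The rule for named genes was all 10 members, the nearest non-member pattern of each, and 2 to 4 genes with the smallest p of each list. Tnfrsf1a, Cxcr2, Ccr2, Csf3, Il1b, Camp, Tie1, Kdr and Tek were named outside it, after their values were seen. Coordinates and promoters are RefSeq or GENCODE on GRCm38. Other settings tried were a pseudocount of 0.1, scaling by median of ratios, testing with no filter, a mean TPM of at least 1, a replicate block, the Xist to Y-linked ratio as a covariate, protein-coding genes only, and leaving out each library.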

Additional observations from a re-analysis of the deposited data

Results flagged for a closer look

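Within each genotype the gap between the most extreme library and its neighbour was compared with Dixon's 95% critical value for 4 samples. In 26 sets of 4 values, the 10 gene levels and 3 ratios in each group, 0 exceeded it.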

How the results depend on the processing

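None of the 10 genes passed under any of the 15 alternatives run, and the median of the 10 stayed between -0.15 and -0.02 when each library was left out. The number of genes passing over the whole table was 5 with a pseudocount of 0.1 and 0 with no filter, a mean TPM filter, the Xist to Y ratio, protein-coding genes only or the replicate block, and 2 to 7 with a library left out; the cause was not tested. Correlations between WT and null libraries of the same replicate number were -0.0474 to 0.114. The same number was the best match in both directions for replicates 2 and 4, and in neither direction for replicates 1 and 3. Whether the numbers pair the animals was therefore not settled. Under the replicate block 0 of the 10 genes passed. Members with groups apart numbered 0 with median-of-ratios scaling or protein-coding genes only, and 1 to 2 with a library left out, the second being Tnfaip3 without WT replicate 2 or null replicate 1. Cxcl1 turned to 0.02 with scaling. With a library left out, Cxcl1 ran from -0.20 to 0.04, Ccl7 from -0.18 to 0.36, Lif from -0.03 to 0.25, Ptgs2 from -0.24 to 0.10, Tnf from -0.67 to -0.42 and Tnfaip3 from -0.92 to -0.51. The Tnf exact p was 0.0571 without any 1 null library, and the Tnfaip3 exact p ran from 0.0286 without null replicate 1 to 0.143 without WT replicate 1 or WT replicate 3. Il6 ran from 0.26 to 0.58, Cxcl2 from 0.03 to 0.46, Ccl2 from -0.44 to -0.17 and Nfkbia from -0.37 to -0.08. The difference in log2 ratio ran from -0.71 to -0.38 for Tnfaip3 to Nfkbia, 0.21 to 0.60 for Cxcl2 to Cxcl1 and 0.18 to 0.70 for Ccl7 to Ccl2. The median of the other target genes, -0.13, was -0.18 to -0.05 with a library left out. Unknown depth leaves the counting error of the lowest member, Tnf, unstated.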

Other observations

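The kappa-B consensus was also counted in the promoters of the other lists, in the same 250 bases. It was present for 3 of 8 matched subunit and kinase genes, 1 of 15 receptor and adaptor genes, 3 of 13 other brakes, 6 of 14 other target genes and 4 of 15 immediate early genes, beside 3.9% of all promoters. The list counts are genes with a match at any start site, while the share is per promoter, so the units differ. Erythroid genes, which mark blood in the preparation, summed to 111 to 1082 TPM in WT and 281 to 1039 TPM in null libraries, highest in WT replicate 3. Perichondrium and fibroblast genes summed to 1215 to 4247 TPM in WT and 1445 to 2948 TPM in null libraries. Both sums were highest in WT replicate 3 and lowest in WT replicate 2.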
